A study of Mus musculus with 2 samples.

Results

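Angiomotins, the coactivators YAP1 and TAZ, the TEAD factors and the kinase LATS2 form one signalling chain, and 10 of its genes were followed in a pair of RNA sequencing libraries. They were Amot, Amotl1, Amotl2, Yap1, Wwtr1 (which encodes TAZ), Tead1, Tead2, Tead3, Tead4 and Lats2, each found by its symbol among 46983 genes of the table. All 10 reached 1 CPM, a count scaled to library size, in at least 1 library and so were among the 15850 genes that entered the comparison. The genes were chosen by their place in the pathway and on their sh1557 over shCtrl ratios, which were already known, so their own values are given as a description.

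Both libraries were made from total RNA of 46C, a line of mouse embryonic stem cells in which green fluorescent protein reports on Sox1, grown in serum medium with LIF on a layer of feeder cells. The library called sh1557 came from stably infected clones that carried a pLKO.1 short hairpin against the long noncoding RNA linc1557, and shCtrl from clones with a control hairpin; both had passed puromycin selection. The series title puts linc1557 at the start of differentiation, and the comparison asks which genes differed when it was targeted. There was 1 library per group, so no test could be made, and intervals in brackets are 95% counting intervals that do not cover the spread between cultures or clones.

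The libraries held 26693282 counts for sh1557 and 23146210 for shCtrl, and the median entered gene had 336 counts in sh1557 and 325 in shCtrl. No row could be assigned to linc1557 by name, and its level was not analysed here. All 18 markers of naive embryonic stem cells entered, with 8474 counts of Pou5f1 in the sh1557 library and 7269 in the shCtrl library, and 17 of them differed by less than 2-fold. The other, Tbx3, was 2.20-fold higher in sh1557 (2.04 to 2.37). The median log2 ratio of these markers, sh1557 over shCtrl, was 0.25, and 4 of the 18 had a ratio below 1. Fibroblast markers, a sign of feeder cells, were present in both libraries, for example with 1668 counts of Col1a2 in sh1557 and 5453 in shCtrl. In bulk RNA, fewer cells of a type and less RNA per cell cannot be told apart.

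YAP1 and TAZ carry no DNA-binding domain of their own and act on genes through TEAD factors. The kinases LATS1 and LATS2 phosphorylate them and so keep them out of the nucleus, and angiomotins hold them at tight junctions and actin filaments. In the mouse blastocyst, TEAD4 with YAP1 switches on trophectoderm genes in outer cells, whereas angiomotin in inner cells helps LATS to silence that output. Amotl2 and Lats2 are themselves known targets of YAP-TEAD, which makes them feedback inhibitors. Transcript counts give no measure of phosphorylation or of where a protein lies in the cell.

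Of the 10 genes, 5 were lower in the sh1557 library and 0 were higher by the size rule, which asks for at least a 2-fold difference with an interval that excludes 1. Across all entered genes 9.48% were lower and 4.68% were higher by that rule. The 5 were Amot, Amotl1, Amotl2, Tead3 and Lats2. The median log2 ratio of the 10 genes, sh1557 over shCtrl, was -0.93, beside 0.02 for all entered genes. In 9 of 10 the ratio lay below 1, as it did in 48.1% of all entered genes, and Tead4 was the exception.

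**Figure D1:**
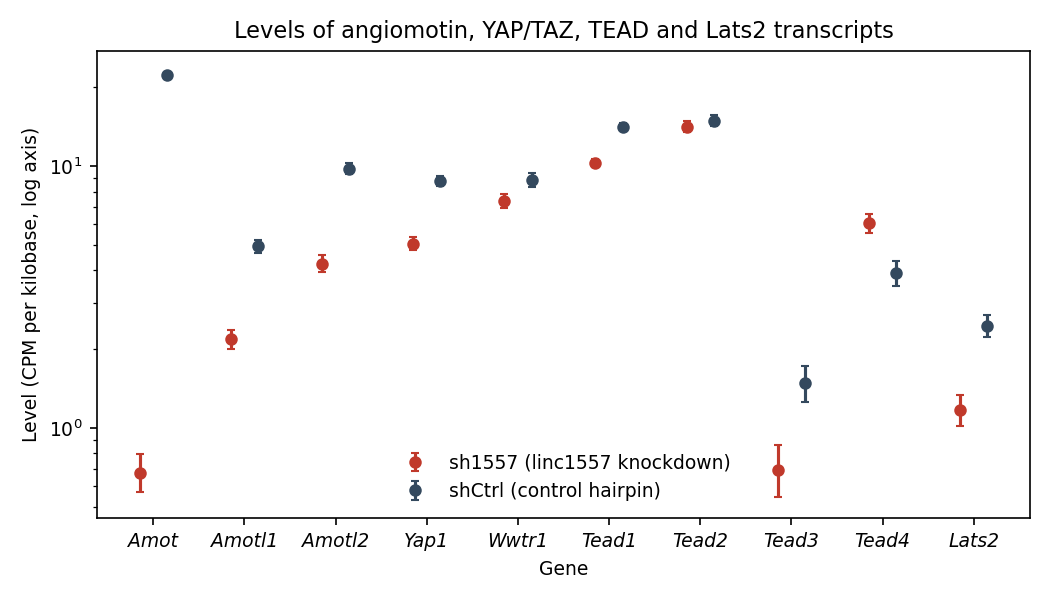
Level of each gene in CPM per kilobase of gene length (log axis) in the sh1557 library (red) and the shCtrl library (dark blue), with exact 95% Poisson intervals. Amot stands at 0.674 in sh1557 and 22.2 in shCtrl, the widest gap of the 10, and Tead4 alone lies higher in sh1557.

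The widest difference was found among the angiomotins. Amot, the founding angiomotin, had 145 counts in the sh1557 library, against 4505 in the shCtrl library, and was 33.0-fold lower (28.0 to 39.2). By its log2 ratio of -5.04 Amot was at place 24 from the lowest of the 15850 entered genes. Of all entered genes, 0.921% were lower by at least 8-fold. Amotl1, which encodes a junctional angiomotin, had 547 counts in sh1557, against 1167 in shCtrl, and was 2.27-fold lower (2.05 to 2.51). Amotl2, a YAP-TEAD target that binds YAP1 in turn, had 683 counts in sh1557, against 1485 in shCtrl, and was 2.31-fold lower (2.11 to 2.53). All 3 paralogs were thus lower in sh1557, but by very unequal amounts.

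The ratio between paralogs needs no scaling of the libraries. Relative to Amotl1, Amot was 14.6-fold lower in sh1557 (12.0 to 17.8), and relative to Amotl2 it was 14.3-fold lower (11.8 to 17.4). The changes of Amotl1 and Amotl2 could not be told apart, with a ratio of 1.02 between them (0.887 to 1.17). Per kilobase of gene length, Amot made up 9.50% of the summed angiomotin level in sh1557 and 60.1% in shCtrl. Amotl2 made up 59.8% in sh1557 and 26.5% in shCtrl, and so was the most abundant angiomotin transcript in sh1557 and Amot in shCtrl. The summed level was 7.09 CPM per kilobase in sh1557 and 37.0 in shCtrl.

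Set against their binding partners, the angiomotins stood lower in sh1557 and higher in shCtrl. Their summed level was 0.571 times that of Yap1 and Wwtr1 together in sh1557 and 2.09 times in shCtrl.

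**Figure D2:**
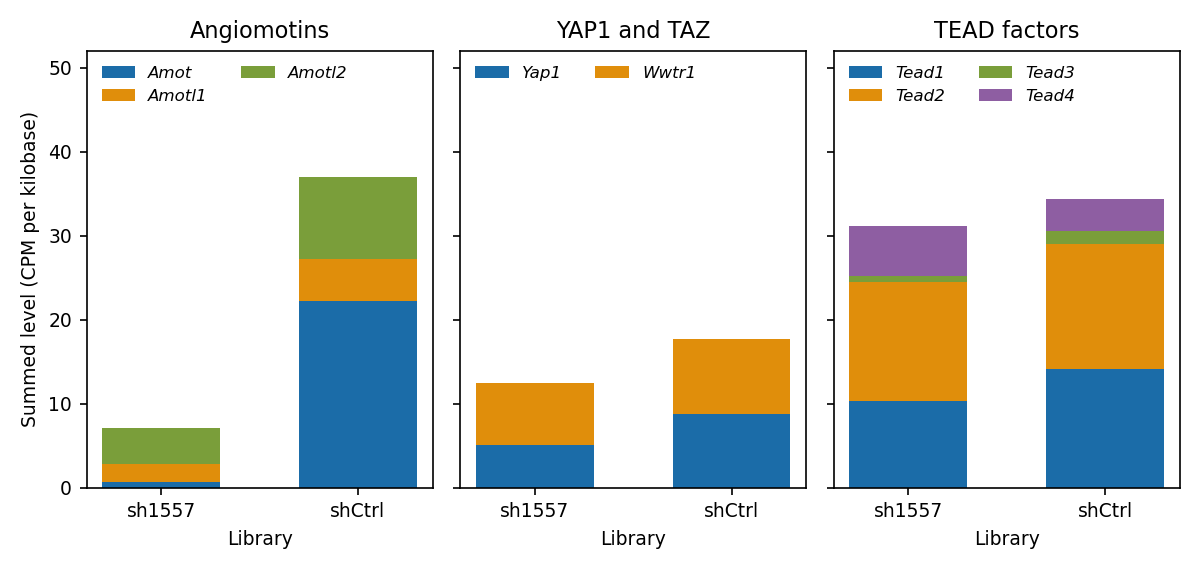
Summed level in CPM per kilobase of the angiomotins, of Yap1 and Wwtr1, and of the TEAD factors in the sh1557 and shCtrl libraries, with each gene as a part of its bar. The angiomotin bar reaches 7.09 in sh1557 and 37.0 in shCtrl, while the TEAD bar reaches 31.2 in sh1557 and 34.4 in shCtrl.

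Both coactivator genes had values below those of the shCtrl library without meeting the rule. Yap1 had 1198 counts in sh1557, against 1956 in shCtrl, at a log2 ratio of -0.79 (-0.90 to -0.69). Wwtr1 had 902 counts in sh1557, against 1025 in shCtrl, at a log2 ratio of -0.27 (-0.40 to -0.14). Yap1 was lower than Wwtr1 in relative terms by 1.44-fold (1.28 to 1.61). Per kilobase, Yap1 stood at 0.686 times the level of Wwtr1 in sh1557 and at 0.985 times in shCtrl. Their summed level was 12.4 CPM per kilobase in sh1557 and 17.7 in shCtrl.

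The TEAD factors, which bring the coactivators to DNA, had ratios on both sides of 1. Tead1, known for its part in the heart, had 2965 counts in sh1557, against 3829 in shCtrl, at a log2 ratio of -0.46 (-0.53 to -0.39). Tead2, a TEAD gene of the early embryo, had 1694 counts in sh1557, against 1677 in shCtrl, at -0.07 (-0.17 to 0.03). These were the 2 most abundant TEAD transcripts in both libraries, and neither met the rule. Tead3 was the scarcest TEAD gene, with 78 counts in sh1557, against 157 in shCtrl, and was 2.14-fold lower (1.62 to 2.84). Tead4, the trophectoderm TEAD gene, had 557 counts in sh1557, against 338 in shCtrl, at a log2 ratio of 0.63 (0.44 to 0.83). It stayed under the 2-fold mark but its interval lay above 0.

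Relative to one another, the TEAD genes differed by more than counting error in every pair compared. Tead4 over Tead3 was 3.32-fold higher in sh1557 (2.43 to 4.55), Tead4 over Tead1 2.13-fold higher (1.84 to 2.46) and Tead4 over Tead2 1.63-fold higher (1.40 to 1.90). Tead1 relative to Tead2 was 1.30-fold lower (1.20 to 1.42). Tead4 made up 19.4% of the summed TEAD level per kilobase in sh1557 and 11.3% in shCtrl. Tead1 made up 33.0% in sh1557 and 41.1% in shCtrl, and Tead2 made up 45.4% in sh1557 and 43.3% in shCtrl. The summed TEAD level was 31.2 CPM per kilobase in sh1557 and 34.4 in shCtrl.

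Lats2, the kinase that phosphorylates YAP1 and TAZ, had 219 counts in sh1557, against 432 in shCtrl, and was 2.10-fold lower (1.78 to 2.48). Its paralog Lats1 had 839 counts in sh1557, against 885 in shCtrl, at a log2 ratio of -0.16. Relative to Lats1, Lats2 was 1.87-fold lower (1.54 to 2.27). Per kilobase, Lats1 stood at 3.83 times the level of Lats2 in sh1557 and at 2.05 times in shCtrl. In the annotation used here a second coding gene, Gm49361, shares 2955 exon bases with Lats2 on the same strand. Reads from these bases cannot be told apart by gene. The deposited counts hold no entry for Gm49361, so no reads were assigned to it there. Reads of Yap1 and Tead2 are less exposed, with 116 exon bases shared with Gm20416, a gene at 0 counts in both libraries, and 13 with Cd37, which had 92 counts in sh1557 and 48 in shCtrl.

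The order of the levels per kilobase also differed between the libraries. In sh1557 it ran from Tead2 (14.2 CPM per kilobase) over Tead1 (10.3), Wwtr1 (7.37), Tead4 (6.04), Yap1 (5.05), Amotl2 (4.24), Amotl1 (2.18) and Lats2 (1.17) to Tead3 (0.692) and Amot (0.674). In that library the counting intervals of neighbours overlapped only for Tead3 and Amot. In shCtrl the order was Amot (22.2 CPM per kilobase), Tead2 (14.9), Tead1 (14.1), Amotl2 (9.79), Wwtr1 (8.89), Yap1 (8.76), Amotl1 (4.94), Tead4 (3.90), Lats2 (2.45) and Tead3 (1.48). There the intervals overlapped for Tead2 and Tead1, for Amotl2 and Wwtr1, and for Wwtr1 and Yap1. Amot was thus last in sh1557, though not clear of Tead3, and first in shCtrl. Tead4 was at place 4 in sh1557 and at place 8 in shCtrl. Levels rest on the deposited gene lengths, of which 5 of 10 equal those of the annotation used here. In relative terms the farthest off was Tead3, with 4398 bases in the table and 6714 in the annotation. The longer length would lower the level of Tead3, so its order against Amot in sh1557 rests on the deposited length.

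**Figure D3:**
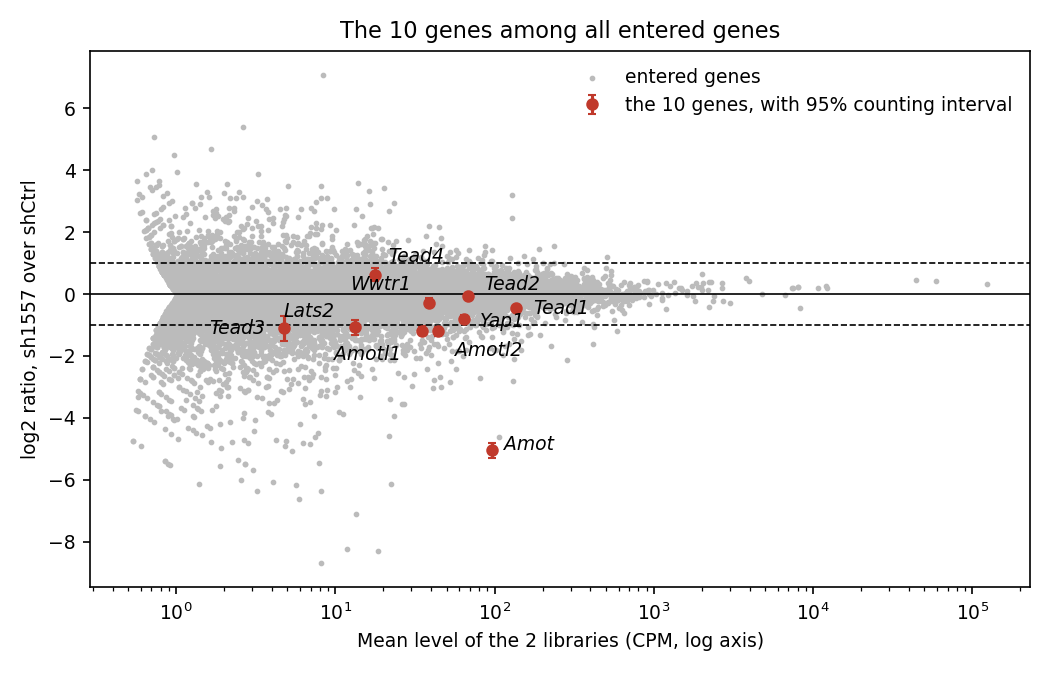
The log2 ratio of sh1557 over shCtrl against the mean level of the 2 libraries (CPM, log axis) for all 15850 entered genes (grey) and the 10 genes (red, with 95% counting intervals); dashed lines mark 2-fold. Amot lies at -5.04 and the other 9 lie between -1.21 and 0.63.

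The genes most like Amot were sought among 3626 other protein-coding genes with at least 1000 counts in shCtrl, by the difference of their log2 ratios over the 2 libraries. The nearest was Klhl13, which encodes an adaptor of a CUL3 ubiquitin ligase and also lies on chromosome X. It had 217 counts in sh1557, against 4974 in shCtrl, with a log2 ratio of -4.61, which differs from that of Amot by 0.44. Next came the semaphorin gene Sema6a (-4.58, a difference of 0.46), the mesoderm factor gene T (-6.14, 1.10), the claudin gene Cldn6 (-3.94, 1.10) and the simple epithelial keratin gene Krt8 (-3.56, 1.49). With 2 libraries, likeness rests on 1 ratio per gene. The filter used shCtrl counts alone, so genes low in shCtrl were left out of the search.

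Promoter windows were taken from RefSeq (GRCm38.p6), running from 250 bases before a gene's start to 50 after it, and 8 of the 10 genes had at least 1. They are shown for 5 of these genes and for the target gene Ccn1, because TEAD factors bind the letters CATTCC, which read GGAATG on the other strand. Capitals mark every such match on either strand, and the sequences run 5′ to 3′ on the gene's own strand.
Amot (chrX:145487590-145487889, minus strand): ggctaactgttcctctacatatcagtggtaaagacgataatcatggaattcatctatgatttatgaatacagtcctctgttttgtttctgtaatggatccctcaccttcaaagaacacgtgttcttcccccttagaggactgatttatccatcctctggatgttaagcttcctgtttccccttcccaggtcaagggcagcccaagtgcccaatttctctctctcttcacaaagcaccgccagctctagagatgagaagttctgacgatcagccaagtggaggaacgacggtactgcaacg
Amotl2 (chr9:102717554-102717853, plus strand): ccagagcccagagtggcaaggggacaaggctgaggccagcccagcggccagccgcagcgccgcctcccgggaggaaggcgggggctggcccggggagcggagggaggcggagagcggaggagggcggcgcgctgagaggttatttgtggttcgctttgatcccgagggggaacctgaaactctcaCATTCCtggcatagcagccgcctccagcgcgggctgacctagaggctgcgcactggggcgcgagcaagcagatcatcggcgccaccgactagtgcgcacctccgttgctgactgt
Wwtr1 (chr3:57575861-57576160, minus strand): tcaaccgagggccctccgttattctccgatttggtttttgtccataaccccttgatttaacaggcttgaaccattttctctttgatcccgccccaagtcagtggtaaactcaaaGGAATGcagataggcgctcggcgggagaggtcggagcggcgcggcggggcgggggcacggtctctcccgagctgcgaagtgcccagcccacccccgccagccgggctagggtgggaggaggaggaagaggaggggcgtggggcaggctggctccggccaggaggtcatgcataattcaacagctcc
Tead3 (chr17:28350551-28350850, minus strand): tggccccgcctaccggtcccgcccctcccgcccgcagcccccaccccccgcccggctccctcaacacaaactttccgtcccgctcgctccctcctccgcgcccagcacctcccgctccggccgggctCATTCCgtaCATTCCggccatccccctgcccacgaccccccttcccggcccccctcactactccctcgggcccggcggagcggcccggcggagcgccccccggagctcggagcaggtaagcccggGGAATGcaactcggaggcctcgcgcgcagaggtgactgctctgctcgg
Lats2 (chr14:57746074-57746373, minus strand): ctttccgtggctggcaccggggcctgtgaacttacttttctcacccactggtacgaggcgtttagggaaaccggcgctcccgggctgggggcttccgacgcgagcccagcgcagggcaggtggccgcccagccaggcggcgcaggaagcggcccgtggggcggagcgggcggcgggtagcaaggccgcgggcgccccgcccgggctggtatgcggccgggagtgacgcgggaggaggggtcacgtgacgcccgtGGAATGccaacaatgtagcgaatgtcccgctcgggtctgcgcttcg
Ccn1 (chr3:145649936-145650235, minus strand): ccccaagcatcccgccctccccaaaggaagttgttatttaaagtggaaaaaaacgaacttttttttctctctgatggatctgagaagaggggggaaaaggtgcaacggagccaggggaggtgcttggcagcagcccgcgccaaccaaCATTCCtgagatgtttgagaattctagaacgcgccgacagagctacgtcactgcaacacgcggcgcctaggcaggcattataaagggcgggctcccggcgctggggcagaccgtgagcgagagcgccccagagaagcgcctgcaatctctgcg
A match was found in a window of 5 of the 8 genes, namely Amotl2, Yap1, Wwtr1, Tead3 and Lats2, and in 14.5% of the 10580 entered genes with a window. The match in Amotl2 begins 65 bases before the start, that in Wwtr1 136 and that in Ccn1 103 bases before it, and Tead3 has 3 in the window shown. The Lats2 match begins 4 bases after a start that lies 12.3 kb inside the annotated gene. The Amot window, with none, belongs to a start 17.5 kb inside the annotated gene. A match is a string of letters, not evidence of binding, and its lack in a window of this length says nothing of sites elsewhere.

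Known target genes of YAP and TAZ were taken from a signature. Of the 22 genes of this signature, which was drawn from human tumours, 21 entered. Of these, 12 were lower and none was higher, beside 9.48% lower and 4.68% higher of all entered genes, and 9 missed the rule. The list had a median log2 ratio of -1.15 beside 0.02 for all entered genes. Without Amotl2 and Lats2, which are on the list, 10 of 19 were lower. The growth factor binding protein gene Igfbp3 had 228 counts in sh1557, against 1766 in shCtrl, and was 8.23-fold lower (7.17 to 9.49). Ccdc80, which encodes a matrix protein, was 5.43-fold lower (4.40 to 6.76), and Ptpn14, a phosphatase gene whose product holds YAP1 in the cytoplasm, 3.03-fold lower (2.71 to 3.39). Both matricellular target genes were lower as well. Ccn1 had 453 counts in sh1557, against 1252 in shCtrl, and was 2.94-fold lower (2.64 to 3.28). Ccn2, named after its value was seen, had 695 counts in sh1557, against 1599 in shCtrl, at a log2 ratio of -1.29. Targets that missed the rule included Ankrd1 (log2 ratio -0.86), Axl (-0.78), Asap1 (-0.19), Gadd45a (-0.07) and Fjx1 (-0.07). In 20 of the 21 the ratio lay below 1, and the exception was the ectonucleotidase gene Nt5e with 284 counts in sh1557 and 155 in shCtrl. Of 15 genes of the list with a promoter window, 7 held the TEAD letters, which is 46.7%. The 7 include Amotl2 and Lats2, already counted among the 10 genes.

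Markers of feeder fibroblasts moved with these targets. Of 30 markers 21 were lower, beside 9.48% of all entered genes, and 9 missed the rule. Their log2 ratios had a median of -1.38 and ran from -2.66 to 0.26, and their summed level was 205 CPM per kilobase in sh1557 and 524 in shCtrl. None of the 30 was at 0 in either library. Dcn alone had a ratio above 1, at 1.19 (1.05 to 1.36), and the intervals of Lum and Twist2 included 1. Timp3 was 6.34-fold lower (5.62 to 7.17), and the collagen genes Col6a3, Col3a1 and Col6a2 were 5.41-fold (4.89 to 5.99), 4.48-fold (4.07 to 4.95) and 4.40-fold (3.78 to 5.14) lower. Beside them, the log2 ratio of Amot was -5.04, those of the 8 other genes with a ratio below 1 ran from -1.21 to -0.07, and that of Tead4 was 0.63. The part of feeder cells in the levels of the 10 genes and of the YAP and TAZ targets was not tested.

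**Figure D4:**
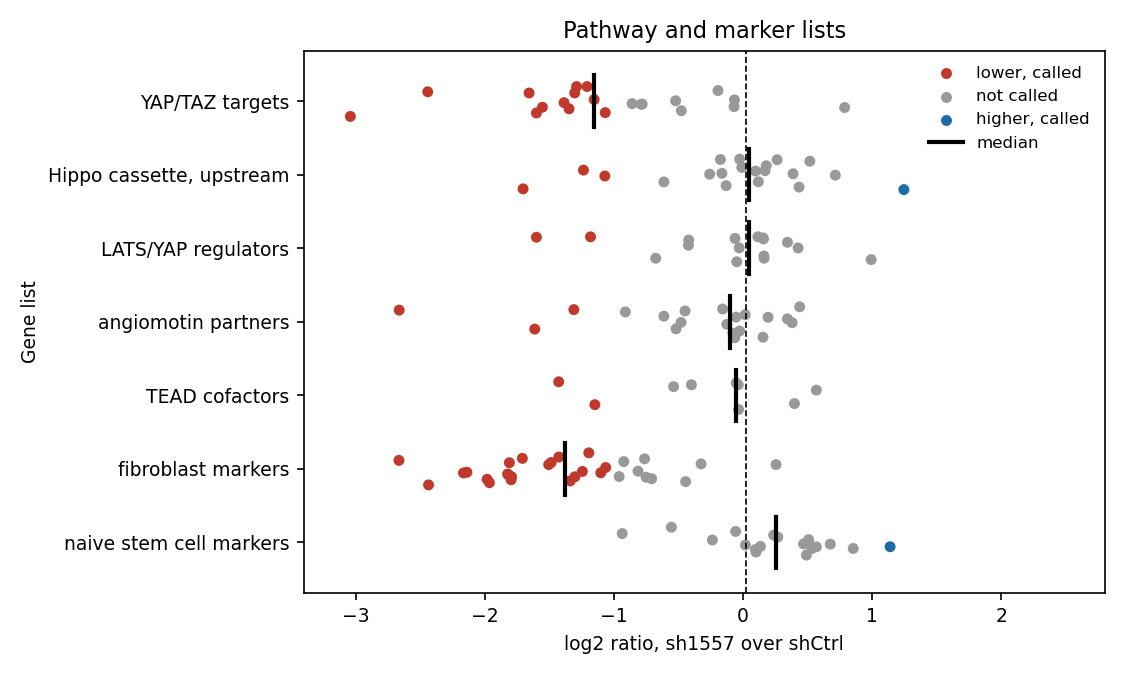
The log2 ratio of sh1557 over shCtrl for the entered genes of 5 pathway lists and 2 marker lists; each point is a gene (red lower, blue higher, grey not called), the bar is the list's median and the dashed line the median of all entered genes. YAP and TAZ targets (median -1.15) and fibroblast markers (-1.38) lie to the left, naive stem cell markers (0.25) to the right, and the other lists near 0.

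Most genes of the Hippo kinase cassette and its upstream regulators were not called, as was so for all entered genes. Of these 20 genes, 3 were lower and 1 was higher, beside 9.48% lower and 4.68% higher of all entered genes. The other 16 missed the rule, and the median log2 ratio of the list was 0.04. The 3 lower ones were the large atypical cadherin genes Fat4 (3.26-fold, 2.43 to 4.42), Fat1 (2.10-fold, 2.04 to 2.16) and Dchs1 (2.36-fold, 1.65 to 3.41), and Fat1 had 6920 counts in sh1557, against 13680 in shCtrl. The higher one was the kinase gene Tnik, with 632 counts in sh1557, against 251 in shCtrl (2.37-fold higher, 2.04 to 2.75). The genes of the core, Stk3 (0.12), Stk4 (0.71), Sav1 (-0.03), Mob1a (0.26), Mob1b (-0.01) and Lats1 (-0.16), were not called at these log2 ratios.

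By the rule, 9.48% of all entered genes were lower and 4.68% were higher. Among 16 genes whose products restrain or turn over LATS, YAP1 or TAZ, 2 were lower and none was higher. The other 14 missed the rule, and the median log2 ratio of the list was 0.04. The lower ones were Ptpn14, given above, and Ajuba, which encodes a LIM protein that inhibits LATS, with 825 counts in sh1557, against 1761 in shCtrl (2.27-fold lower, 2.09 to 2.47). Of 20 genes for proteins that bind angiomotins or control their turnover, 3 were lower and 17 missed the rule, at a median of -0.10. Patj, a scaffold gene with many PDZ domains, had 101 counts in sh1557, against 602 in shCtrl, and was 6.33-fold lower (5.12 to 7.90). Its relative Mpdz was 2.48-fold lower (2.14 to 2.89) and the membrane anchor gene Crb3 3.06-fold lower (2.30 to 4.11). Mpp5 (0.38), whose product PALS1 binds these proteins, its partner gene Lin7c (-0.07), and the junction and polarity genes Tjp1 (0.02), Magi1 (-0.05) and Pard3 (-0.45) were not called at these log2 ratios.

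Of 11 cofactors of TEAD, 9 entered, 2 were lower and 7 missed the rule, at a median log2 ratio of -0.05. Among all entered genes 9.48% were lower. Vgll3, a cofactor that competes for TEAD, had 77 counts in sh1557, against 195 in shCtrl, and was 2.69-fold lower (2.06 to 3.55). Jun, whose AP-1 product binds beside TEAD at many enhancers, was 2.22-fold lower (1.98 to 2.48).

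Some trophectoderm genes depend on TEAD4 in the blastocyst. Of 12 trophectoderm genes 7 entered and 5 were lower, with 0 higher, beside 9.48% lower and 4.68% higher of all entered genes. Any part of TEAD4 in their levels was not tested. The 2 trophectoderm genes that missed the rule were the transcription factor genes Gata2 and Tfap2c. Gata2 had 35 counts in sh1557 and 24 in shCtrl, and Tfap2c 593 in sh1557 and 717 in shCtrl. Not entered were Elf5 (0 counts in sh1557, 1 in shCtrl), Plac1 (0, 1), Hand1 (3, 3), Gata3 (3, 7) and Tfap2a (21, 10). Apart from Cdx2, the lower ones were keratin genes. Cdx2 had 2 counts in sh1557, against 31 in shCtrl (16.5-fold lower, 4.19 to 142), and the keratin genes Krt8, Krt18 and Krt7 were 11.8-fold (9.63 to 14.5), 10.03-fold (7.77 to 13.1) and 13.8-fold (5.62 to 44.0) lower. Genes of endoderm and of the primitive streak were mostly lower too. Of 9 entered endoderm genes 6 were lower and 1, Hnf4a, was 2.78-fold higher (2.07 to 3.78). The endoderm list summed to 4.62 CPM per kilobase in sh1557, against 36.6 in shCtrl, where Cer1 alone held 21.3. Of 11 entered streak genes 7 were lower and 2 were higher, Mesp2 by 2.12-fold (1.29 to 3.58) and Tbx6 by 2.02-fold (1.16 to 3.63). The streak list summed to 4.597 CPM per kilobase in sh1557, against 32.0 in shCtrl. Cer1 of the endoderm list had 3 counts in sh1557, against 892 in shCtrl, and Lhx1 of the streak list had 2 counts in sh1557, against 566 in shCtrl. The part of cells carrying these transcripts in the level of Amot was not tested.

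In GRCm38 coordinates, Amot (ENSMUSG00000041688) lies on the minus strand of chromosome X from 145446425 to 145505181. Chromosome 9 carries Amotl1 (ENSMUSG00000013076, 14541966 to 14645056, minus), Amotl2 (ENSMUSG00000032531, 102716672 to 102733418, plus) and Yap1 (ENSMUSG00000053110, 7931999 to 8004596, minus). Wwtr1 (ENSMUSG00000027803) lies on chromosome 3 from 57455649 to 57575910, and Tead1 (ENSMUSG00000055320, 112679318 to 112906807) and Tead2 (ENSMUSG00000030796, 45215753 to 45233644) lie on chromosome 7. Tead3 (ENSMUSG00000002249) lies on chromosome 17 from 28331671 to 28350817, Tead4 (ENSMUSG00000030353) on chromosome 6 from 128224288 to 128300823 and Lats2 (ENSMUSG00000021959) on chromosome 14 from 57689662 to 57758388. Counts cover whole genes and do not separate transcript forms.

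For neighbours, here and below, the start of a gene is its lowest coordinate, whatever its strand. All 14 entered genes that start within 1 Mb of Lats2 had ratios below 1. Of these 3 were lower by the rule and 11 missed it, and the median log2 ratio was -0.75. The nearest lower ones were Xpo4, an exportin gene with 1300 counts in sh1557 and 2453 in shCtrl, and Il17d, an interleukin gene with 18 counts in sh1557 and 37 in shCtrl. Between 50 and 80 Mb of chromosome 14, 75 of 251 entered genes were lower and 3 were higher, at a median of -0.73, and 24.3% had a ratio as low as that of Lats2 or lower. Whether Lats2 is lower on its own account or with its region cannot be told apart here. Ajuba and Dock5, a gene of the YAP and TAZ signature that was 2.61-fold lower (2.36 to 2.89), are also on chromosome 14. On that chromosome 103 of 537 entered genes were lower and the median was -0.43. Their positions were not set against the 50 to 80 Mb stretch.

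Around the other 4 lower genes the medians lay between -0.14 and 0.38. Only 2 entered genes start within 1 Mb of Amot, Trpc5os with a log2 ratio of 0.08 and the pseudogene Hmgb1-ps2 with -0.11, and the 562 entered genes of chromosome X had a median of -0.01. Near Amotl1, 1 of 27 neighbours was lower, the gene Smco4, and the median was 0.05. Near Amotl2, 1 of 15 was lower and 4 were higher, among them Ky and Rab6b, at a median of 0.38. Near Tead3, 1 of 35 was lower and 1 was higher, Scube3 and Cpne5, at a median of -0.14. Around genes that were not called, up to 2 of the nearest called neighbours are given. Near Yap1, 1 of 12 was lower and 3 were higher, among them the matrix protease genes Mmp3 and Mmp10 with log2 ratios of 1.35 and 1.68. Near Tead1, 2 of 8 were lower, namely Parva (-1.44) and Mical2 (-1.46), both genes of the actin cytoskeleton. Near Tead2, 7 of 89 neighbours were lower and 2 were higher, Ccdc155 (1.51) and Slc6a16 (2.61), which were also the nearest called ones. Near Tead4, 1 of 20 was lower and 2 were higher, Prmt8 (1.08) and Pzp (1.21). None of the 6 neighbours of Wwtr1 was called.

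**Figure D5:**
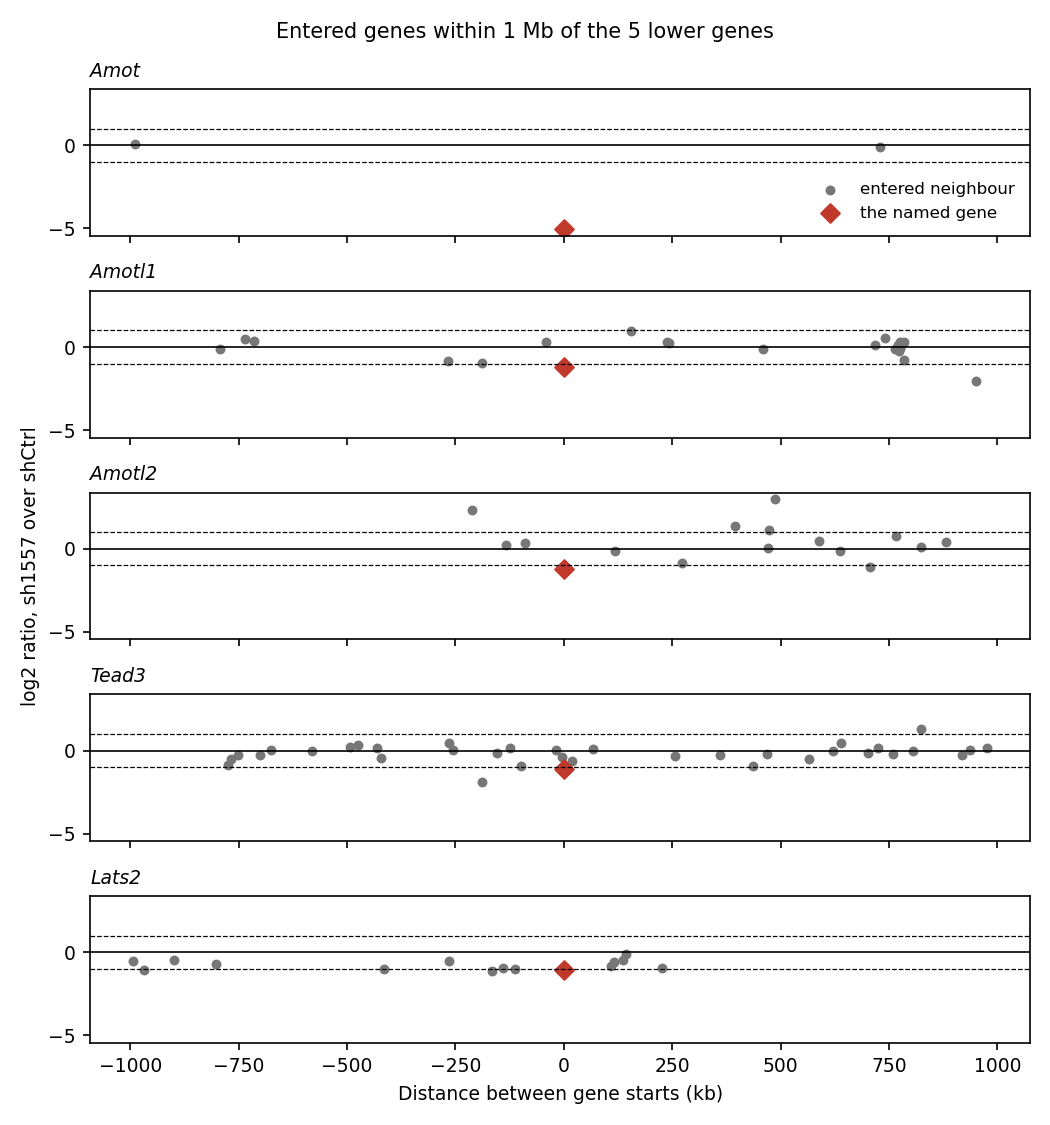
The log2 ratio of sh1557 over shCtrl for entered genes against their distance in kb from Amot, Amotl1, Amotl2, Tead3 or Lats2 (red diamond). Distance is taken between gene starts, here the lowest coordinate on either strand. Dashed lines mark 2-fold. All 14 neighbours of Lats2 lie below 0, and the neighbours of the other genes lie on both sides.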

How the data were processed

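The authors deposited raw counts of reads for each gene in both libraries, beside a column of gene lengths. The tools named in the submitters' processing notes are Trim Galore, HISAT2, featureCounts and DESeq, and the builds are mm10 and GRCm38. Versions, annotation and strand setting were not given in the sources used here. Without strand, reads from a gene and its antisense partner cannot be told apart. Symbols and coordinates came from GENCODE M21 (GRCm38), which matched 46488 of 46983 identifiers.

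Libraries were scaled with TMM in edgeR 4.0.16 under R 4.3.3, with factors of 0.960 for sh1557 and 1.04 for shCtrl. Ratios are sh1557 over shCtrl, from counts without a pseudocount, with exact Clopper-Pearson intervals (Python 3.11.15, scipy 1.17.1) and exact conditional intervals between paralogs. Intervals cover counting error only, as duplicate reads may not be separate molecules. Genes entered at 1 CPM in either library, and 3 counts stood in for 0 in a ratio. Levels per kilobase use the deposited lengths. Calls were tested on simulated data with known folds. The simulated counts held counting error only, so that check does not cover the spread between cultures or clones.

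The 10 genes and all lists were chosen with earlier results of these data known. Named are the 10 genes, up to 4 called genes per list with the largest nearer bound (or the 2 with most counts, if no gene met the rule), the 5 genes most like Amot and up to 2 called neighbours per gene, the nearest ones. Other genes named serve as examples and were chosen after their values were seen. Alternatives were total counts, DESeq2 1.42.0 size factors, TMM on nuclear protein-coding genes, a filter at 5 CPM or none, a prior count of 2, thresholds of 1.5-fold and 4-fold, thinning, and centring in 10 bins of gene length or expression level.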

Additional observations from a re-analysis of the deposited data

How the results depend on the processing

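The same 5 genes, Amot, Amotl1, Amotl2, Tead3 and Lats2, were lower under 9 of 11 alternatives. With a threshold of 1.5-fold Yap1 joined them, and Tead4 was 1 gene called higher; with a threshold of 4-fold only 1, Amot, was called lower. The log2 ratio of Amot ranged from -5.16 to -5.00 over 7 alternatives. Total counts moved the median of all entered genes by -0.12 and gave -0.91 for Yap1, -0.57 for Tead1 and -0.19 for Tead2. Lists were counted again only under the other scalings and filters, not under other thresholds, the prior count, thinning or centring. Within those settings, among the 5 pathway lists, the count of called genes moved by over 1.5 times only for the restrainers of LATS, YAP1 and TAZ. These had 1 higher gene, Csnk1e, under DESeq2 size factors and 1 under TMM on nuclear protein-coding genes, against 0. Of the marker lists, trophectoderm had 3 lower genes with a filter at 5 CPM, the streak list had 0 higher genes with that filter and with total counts, and the naive list had 1 lower gene with total counts. No paired analysis was possible because each group has 1 library, and no library could be left out. Among the 10 genes, counting error is widest for Tead3, which had the fewest counts of the 10 over both libraries.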
